A study of Homo sapiens with 4 samples.

Results

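The genes described here are 47 interferon-stimulated and antigen presentation genes, 39 of them interferon effectors and 8 of them antigen presentation genes. They were chosen by symbol in the platform annotation, out of 19775 genes that a probe set of the array named alone. Each gene was read from its brightest probe set that named no other gene. STAT2 had no such probe set in the annotation used here, which left 46 members with values. The cells were MCF10A, an established non-tumorigenic line of human breast epithelium, grown under normal conditions. Total RNA was hybridised to 4 Affymetrix arrays, 1 per sample. RNA on the control arrays (n = 2) came from cells carrying a control short hairpin RNA (shRNA). RNA on the other arrays (n = 2) came from cells carrying shRNA against Cbl and Cbl-b, called the labelled double knockdown here. Whether the cells were 1 clone or a pool is not known from the labels. The cell line and the growth condition were shared by both groups. No label states separate cultures within a group, and the p-values therefore reflect only how these arrays varied, which may be technical. In such bulk RNA, fewer cells that express a gene and less of its RNA per cell cannot be told apart.

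Interferons are secreted proteins that act through receptors, JAK kinases and STAT factors. Type I interferons bring a complex that holds STAT2 and IRF9 to response elements in promoters, and interferon gamma acts on gamma-activated sites. The products of the induced genes sense viral RNA, block virus entry and replication, and raise the display of peptides on major histocompatibility complex (MHC) molecules. Epithelial cells hold many of these genes at a basal level without added interferon. CBL and CBLB are E3 ubiquitin ligases best known for marking activated receptor tyrosine kinases for degradation.

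Promoter sequences of the members were searched for motifs of the interferon response. The members were chosen as interferon-stimulated and antigen presentation genes, so their share of matches describes that choice. RefSeq promoter windows of the GRCh38.p14 assembly, each from 250 bases before to 50 bases after a gene start, were found for 37 members. IRF7, DHX58, IFIT2, IFITM2, OAS2, OASL, MX2, GBP2, TRIM22 and HLA-E had none in the table used. The core of the interferon-stimulated response element, GAAA, any 2 bases and GAAA again, searched on both strands, was present in at least 1 window of 28 of the 37 members (75.7%), against 4.38% of the 27305 genes in the table with windows of the same length. It was found in 22 of 30 interferon effectors and 6 of 7 antigen presentation genes. The core of the gamma-activated site, TTCNNNGAA, which reads the same on both strands, was present in 9 of 37 members (24.3%), against 9.38% of all genes in the table. In 4 members a match of the second motif overlapped a match of the first. A match is a run of letters and not a measured binding site.

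Stretches of 8 promoters are printed to set members that rose beside members that fell and one, ISG15, that did not pass the test. Each runs from 150 bases before to 20 bases after the gene start, 5′ to 3′ on the strand of the gene, with the response element core in capitals, where overlapping matches run together. For IFI27, which has more than 1 start in the table, the first listed was used.
IFITM1 (chr11:313890-314059, plus strand): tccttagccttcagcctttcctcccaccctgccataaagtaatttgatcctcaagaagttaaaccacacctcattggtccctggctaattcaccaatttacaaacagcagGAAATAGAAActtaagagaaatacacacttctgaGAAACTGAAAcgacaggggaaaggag
IFI27 (chr14:94110586-94110755, plus strand): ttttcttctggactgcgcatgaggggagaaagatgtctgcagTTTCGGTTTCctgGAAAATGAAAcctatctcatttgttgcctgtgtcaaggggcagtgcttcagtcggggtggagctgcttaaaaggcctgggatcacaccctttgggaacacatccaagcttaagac
IFI6 (chr1:27672173-27672342, minus strand): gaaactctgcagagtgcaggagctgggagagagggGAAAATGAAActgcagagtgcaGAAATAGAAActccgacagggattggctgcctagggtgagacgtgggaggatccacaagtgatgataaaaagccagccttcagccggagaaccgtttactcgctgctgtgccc
HERC5 (chr4:88456969-88457138, plus strand): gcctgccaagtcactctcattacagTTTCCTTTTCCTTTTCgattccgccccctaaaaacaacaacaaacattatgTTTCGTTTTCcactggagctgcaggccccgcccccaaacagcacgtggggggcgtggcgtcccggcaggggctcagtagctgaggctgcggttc
BST2 (chr19:17405611-17405780, minus strand): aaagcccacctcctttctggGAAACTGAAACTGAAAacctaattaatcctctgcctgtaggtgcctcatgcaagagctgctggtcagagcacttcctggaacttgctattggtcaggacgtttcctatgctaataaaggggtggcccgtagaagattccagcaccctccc
OAS1 (chr12:112906812-112906981, plus strand): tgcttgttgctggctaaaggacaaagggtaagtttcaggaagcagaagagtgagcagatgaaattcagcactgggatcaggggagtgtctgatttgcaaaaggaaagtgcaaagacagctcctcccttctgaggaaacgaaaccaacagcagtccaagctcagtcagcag
OAS3 (chr12:112938324-112938493, plus strand): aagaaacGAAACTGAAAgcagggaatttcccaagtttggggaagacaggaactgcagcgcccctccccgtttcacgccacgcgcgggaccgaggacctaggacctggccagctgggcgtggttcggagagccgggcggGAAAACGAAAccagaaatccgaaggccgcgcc
ISG15 (chr1:1013347-1013516, plus strand): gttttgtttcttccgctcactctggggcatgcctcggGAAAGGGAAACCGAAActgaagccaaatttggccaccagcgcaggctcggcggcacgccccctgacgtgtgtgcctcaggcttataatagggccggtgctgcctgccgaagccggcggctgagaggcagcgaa

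The core stood in promoters of each kind. IFITM1, IFI27, IFI6, HERC5 and BST2, which rose, each held 2 or 3 matches in the printed stretch. The other members that rose were not printed, and of these SAMD9 held 1 match in its window and IRF9 and HLA-DMA held 0. OAS3, which fell, and ISG15, which did not pass the test, each held 2. The OAS1 window held none, which says only that these letters are not in it. Over all windows, the core was found in 6 of the 8 members that rose, 1 of the 2 that fell and 19 of 23 tested members that did not pass. These counts are a description of the sequences, and nothing about factor binding was measured.

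**Figure D1:**
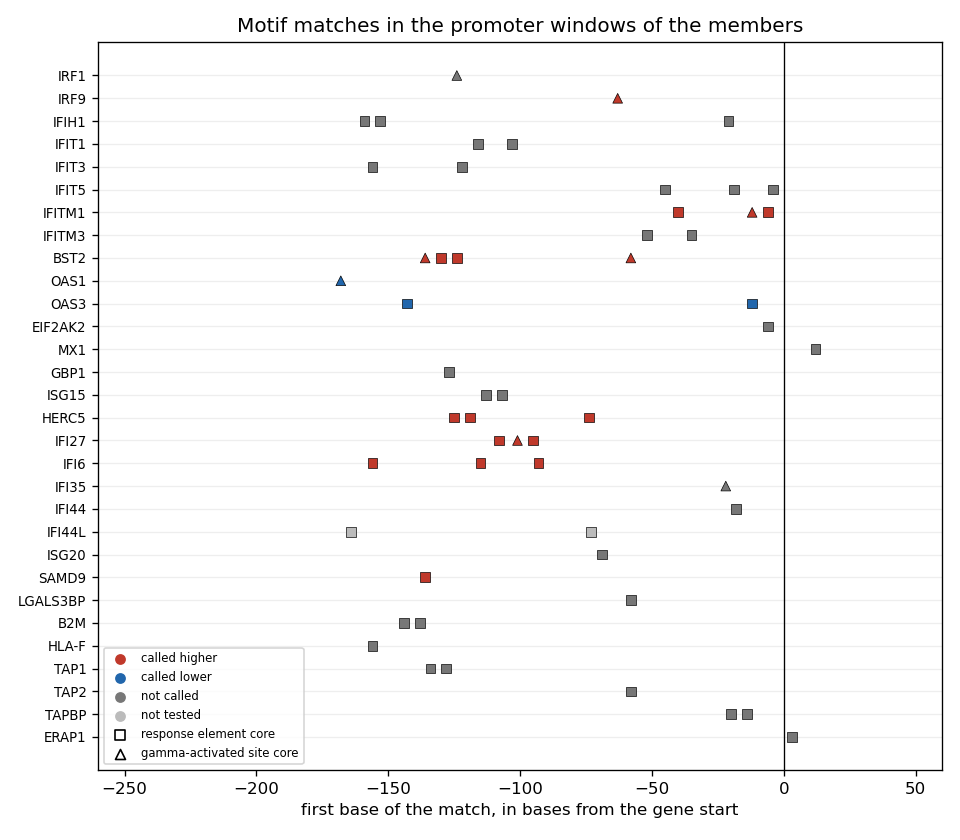
Positions of the matches in the first listed promoter window of each member with a match, in bases from the gene start on the x axis, with squares for the response element core, triangles for the gamma-activated site core and colours for the call. Most squares lie before the start, and red, blue and grey squares overlap in position.

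Probe set values were linear intensities, with array medians between 14.5 and 14.7. A gene was tested where its mean over the 4 arrays reached the median of all probe sets, 14.7, which left 12951 genes. The tests were run on log2(intensity + 16) with limma, adjusted over these genes by the Benjamini-Hochberg method, and a gene passed at an adjusted p under 0.05. Because folds are ratios of intensity + 16, those of dim genes are too small. CBL was lower on the labelled double knockdown arrays (2.59-fold, log2 change -1.37 ± 0.15 SE, n = 2 per group, adjusted p = 0.00139 by limma). Its change was -0.41 with the mean of its probe sets and -0.84 with a constant of 64 in place of 16, both past the threshold (0.0175 and 0.0134). CBLB went against its label, with a log2 change of 0.45 ± 0.088 SE (adjusted p = 0.0148), which lost its call without either labelled double knockdown array (adjusted p = 0.0861 and 0.132) and was 0.28 with the mean of its probe sets (0.0366). Every direction below is that of the labelled double knockdown arrays against the control arrays. All 8 epithelial and basal markers with a probe set reached the brightness minimum. Of these 3 were higher and 2 lower, where 9.41% of all tested genes were higher and 6.60% lower. The basal keratins KRT14 and KRT5 fell 3.07-fold and 1.66-fold, while LAMB3, KRT18 and EPCAM rose 2.12-fold, 1.44-fold and 1.32-fold. The intensities of the 8 markers summed to 42744 and 43595 on the control arrays and to 32149.6 and 33226 on the others. KRT14 alone went from a mean of 13818 to 4488, while the change was above 0 for 4 of the 8 markers and below 0 for 4. Of 11 leukocyte markers 6 lay below the minimum, PTPRC, CD2, MS4A1, NKG7, CD163 and LYZ, none of the 5 tested passed or had an unadjusted p under 0.05 by limma, and the sums were 149 on both control arrays and 144 and 146 on the others. Of 10 endothelial and fibroblast markers 7 lay below it and 1, DCN, was lower, with sums of 362 and 364 against 282 and 287. The part of these markers in the results was not tested.

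Of the 46 members with a probe set, 41 reached the brightness minimum and were tested. Of these, 8 rose and 2 fell, where 9.41% of all tested genes rose and 6.60% fell. Both labelled double knockdown arrays lay above both control arrays for 17 of the 41 and below them for 9, where this held for 28.1% and 29.3% of all tested genes. IFITM1, IFI27, IFI6, IRF9, HERC5, SAMD9, BST2 and HLA-DMA rose, and OAS1 and OAS3 fell. The median log2 change was 0.07 over the 33 tested interferon effectors and 0.08 over the 8 antigen presentation genes, where it was -0.0086 over all tested genes. Changes ran from -0.58 to 1.35 among the effectors and from -0.036 to 0.46 among the antigen presentation genes. Among the effectors 7 rose and 2 fell, and among the antigen presentation genes 1 rose and none fell. A difference between the classes was not tested. At an unadjusted p under 0.05 by limma, 17 of 33 effectors and 3 of 8 antigen presentation genes were counted, where 30.6% of all tested genes were.

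**Figure D2:**
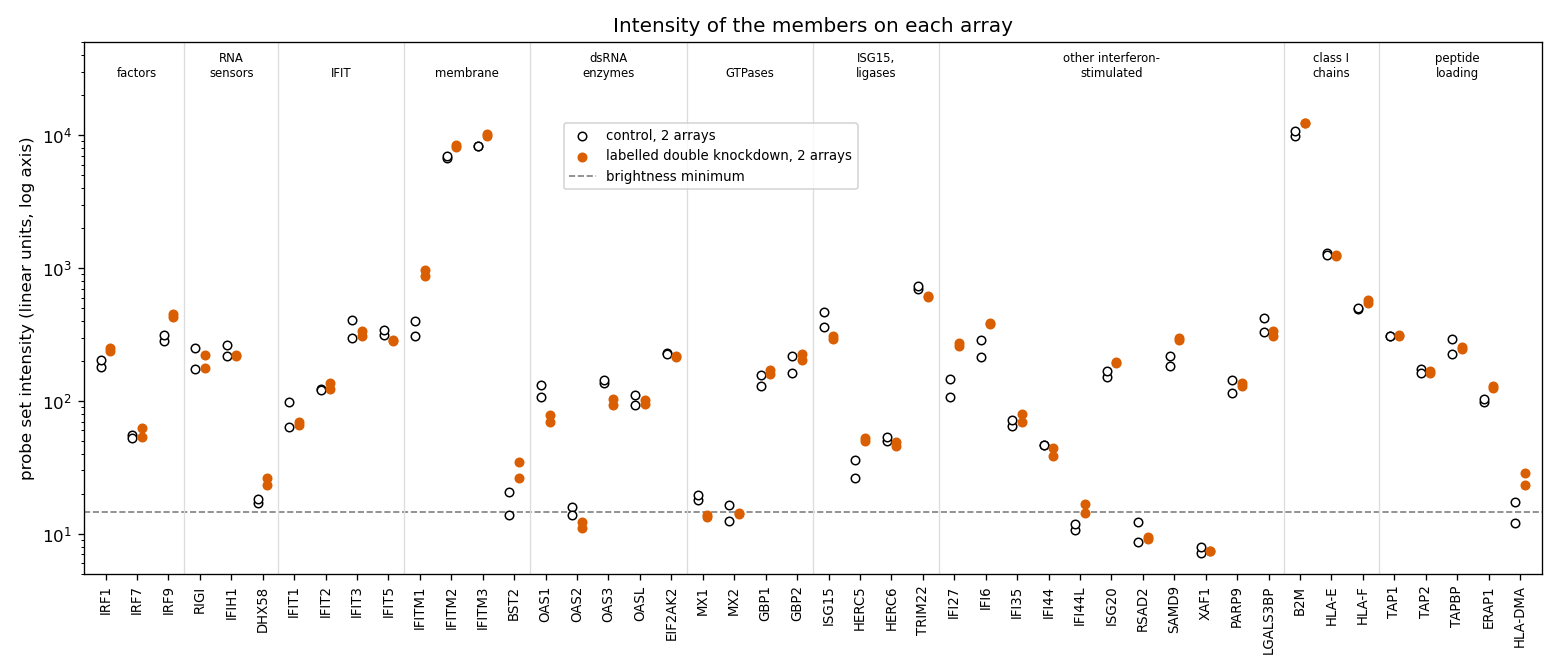
Probe set intensity of the 46 members with a value on each array, on a log axis, with open circles for the 2 control arrays, filled circles for the 2 labelled double knockdown arrays and a dashed line at the brightness minimum. Filled circles lie above open ones for IFITM1 and IFI27 and below them for OAS1 and OAS3, while OAS2, MX2, IFI44L, RSAD2 and XAF1 lie around or under the line.

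The control arrays differed from each other in the interferon effectors. Of the 33 tested, 26 (78.8%) were higher on control replicate 2 than on control replicate 1, with a median difference of 0.14 on the log2 scale, where 52.0% of all tested genes were higher on replicate 2 and the median was 0.0097. IFIT1, RIGI and IFIT3 differed most in that direction, by 0.52, 0.48 and 0.44. Among the 8 antigen presentation genes 4 were higher on replicate 2. The labelled double knockdown arrays differed less, with 23 of 33 effectors higher on replicate 2 and a median difference of 0.059, where 54.4% of all tested genes were higher on replicate 2. Without control replicate 1 the median log2 change of the effectors was -0.015, where that of all tested genes was -0.0070. Without control replicate 2 these medians were 0.17 and -0.0047. Without labelled double knockdown replicate 1 or 2, 2 effectors rose and none fell in either case, and no antigen presentation gene passed. In those fits the spread comes from the control pair alone, and the calls over all genes went from 1219 higher and 855 lower to 489 and 193 without replicate 1 and to 378 and 158 without replicate 2. Without control replicate 1, too, no antigen presentation gene passed.

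**Figure D3:**
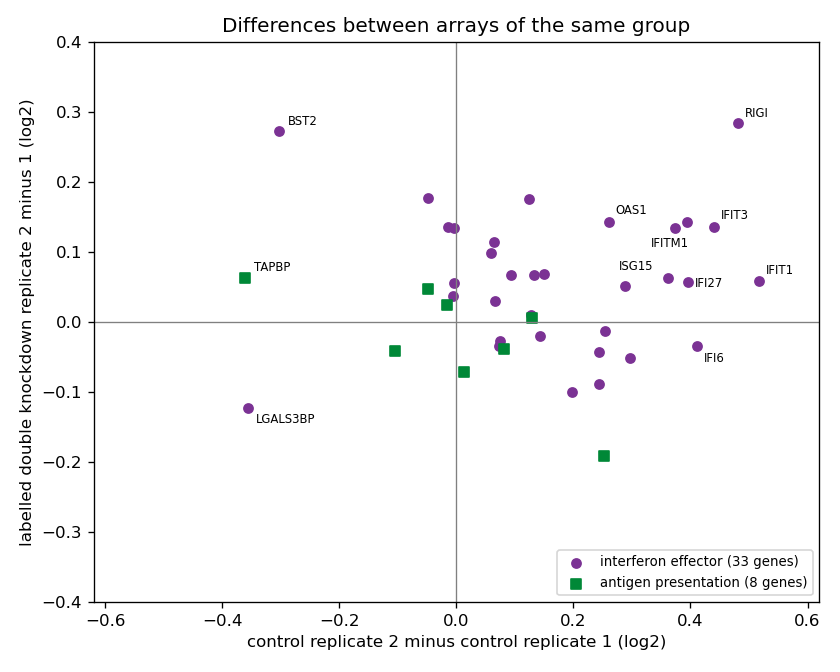
Difference between the arrays of one group for the 41 tested members, with control replicate 2 minus replicate 1 on the x axis and the same for the labelled double knockdown arrays on the y axis, both as log2 differences. Most of the 33 effectors (circles) lie right of zero, with IFIT1, RIGI and IFIT3 farthest, and the 8 antigen presentation genes (squares) lie on both sides.

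Among the membrane proteins that restrict viruses, IFITM1 and BST2 rose. IFITM1 acts at the cell surface, while IFITM2 and IFITM3 act in endosomes, all against virus entry. IFITM1 read 306 and 401 on the control arrays and 873 and 960.2 on the labelled double knockdown arrays, so that the groups did not overlap. Its mean went from 354 ± 67.2 (SD, n = 2) to 917 ± 61.3 (n = 2), a 2.54-fold rise (log2 change 1.35 ± 0.13 SE, adjusted p = 0.000738 by limma), and its call held with each array left out in turn. It was read from a probe set of a type that can match several transcripts, and no value was left once such probe sets were dropped. This was the largest change of any member tested.

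IFITM3 read 8361 and 8336 on the control arrays and 9843 and 10229.9 on the others (log2 change 0.26 ± 0.084 SE), and did not pass (adjusted p = 0.0717). IFITM2, with a log2 change of 0.28 ± 0.085 SE, was close to it (adjusted p = 0.0653). Both passed under 5 alternatives, among them quantile normalization (0.0318 for IFITM2 and 0.0411 for IFITM3). The 3 genes are neighbours on chromosome 11 and closely similar in sequence, and their probe sets are of types that can match several transcripts, so signal could be shared among them. A further probe set that named IFITM1 and IFITM2 together was not used.

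BST2, or tetherin, holds budding virus particles at the cell surface. It was dim, at 20.8 and 13.8 on the control arrays and 26.2 and 35.0 on the labelled double knockdown arrays, with no overlap. The change (1.40-fold, log2 change 0.49 ± 0.13 SE) passed narrowly (adjusted p = 0.044). It did not pass without control replicate 2 (0.138) or without either labelled double knockdown array (0.064 and 0.277). The same held with a constant of 64 in place of 16 (log2 change 0.22, 0.109), quantile normalization (0.0519), no brightness filter (0.128) and the replicate number as a block (0.0622). It has 1 probe set, so its change was the same when the probe sets of each gene were averaged, but its adjusted p over all genes was then 0.0609.

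Among the double-stranded RNA enzymes, OAS1 and OAS3 fell. OAS1, OAS2 and OAS3 make the short 2′-5′ adenylate chains that switch on a ribonuclease, and they are neighbours on chromosome 12. OAS1 read 107 and 131 on the control arrays against 69.3 and 78.1, with both labelled double knockdown arrays below both controls. The mean fell 1.50-fold, to 73.7 ± 6.27 from 119 ± 17.1 (SD, n = 2 each; log2 change -0.58 ± 0.11 SE, adjusted p = 0.0133 by limma). A second OAS1 probe set was lower too (log2 change -0.66, unadjusted p = 0.00658 by limma). OAS3 fell 1.37-fold, from 137 and 144 to 93.6 and 103, again without overlap (log2 change -0.45 ± 0.089 SE, adjusted p = 0.0146). OAS1 and OAS3 lost their calls without labelled double knockdown replicate 1 (0.0986 and 0.132) or replicate 2 (0.0545 and 0.0723).

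OAS2 lay around the brightness minimum on the control arrays, at 15.8 and 13.9, and below it on the others, at 11.0 and 12.3, and was not tested. OASL, a relative without that enzyme activity that binds RIG-I, had a log2 change of -0.043 ± 0.10 SE. EIF2AK2 encodes PKR, the kinase that stops translation by phosphorylating eIF2 alpha on double-stranded RNA. Its control values were 228 and 227 and its labelled double knockdown values 214 and 219.7, a difference that did not pass (log2 change -0.065 ± 0.084 SE, adjusted p = 0.66).

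IFI27 and IFI6, small membrane proteins of mitochondria and the endoplasmic reticulum, both rose. IFI27 read 108 and 147 on the control arrays and 261 and 272 on the labelled double knockdown arrays, which both lay above the controls. The rise was 1.98-fold, from 127 ± 27.6 (SD, n = 2) to 266 ± 7.89 (log2 change 0.99 ± 0.13 SE, adjusted p = 0.00309 by limma). IFI27 and IFITM1 were the 2 members whose calls held in all alternatives that could be run for them. IFI6 rose 1.51-fold, from 212 and 288 to 386 and 377 (log2 change 0.59 ± 0.13 SE, adjusted p = 0.0232). Both control arrays of IFI6 lay below the others, and control replicate 2 was the nearer. Its call was lost without labelled double knockdown replicate 1 (0.113) or 2 (0.107), and without a brightness filter (0.086), and its log2 change was 0.39 without control replicate 1 (0.0463).

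SAMD9, a cytoplasmic antiviral protein, rose 1.42-fold, from 182 and 219 to 296 and 287 (log2 change 0.51 ± 0.10 SE, adjusted p = 0.0162). Its groups did not overlap, and a second, dimmer probe set showed 0.46 on the log2 scale (unadjusted p = 0.0922). SAMD9 lost its call without labelled double knockdown replicate 1 (0.108) or 2 (0.0942), and with the mean of its probe sets (0.0593). LGALS3BP, a secreted glycoprotein, read 424 and 328 against 339 and 310.2, with overlap, and did not pass (log2 change -0.19 ± 0.13 SE, adjusted p = 0.357). ISG20, an exonuclease, had a log2 change of 0.26 ± 0.091 SE (adjusted p = 0.0932). IFI35, IFI44 and PARP9, an ADP-ribosyltransferase relative, lay between -0.12 and 0.11 and did not pass. IFI44L, RSAD2, which encodes the antiviral enzyme viperin, and XAF1 stayed below the brightness minimum on their means and were not tested. RSAD2 read between 8.65 and 12.4 over the 4 arrays and XAF1 between 7.21 and 8.02. IFI44L read 10.7 and 11.9 on the control arrays and 16.6 and 14.3 on the others, and as its probe set lay below the minimum no direction was drawn.

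**Figure D4:**
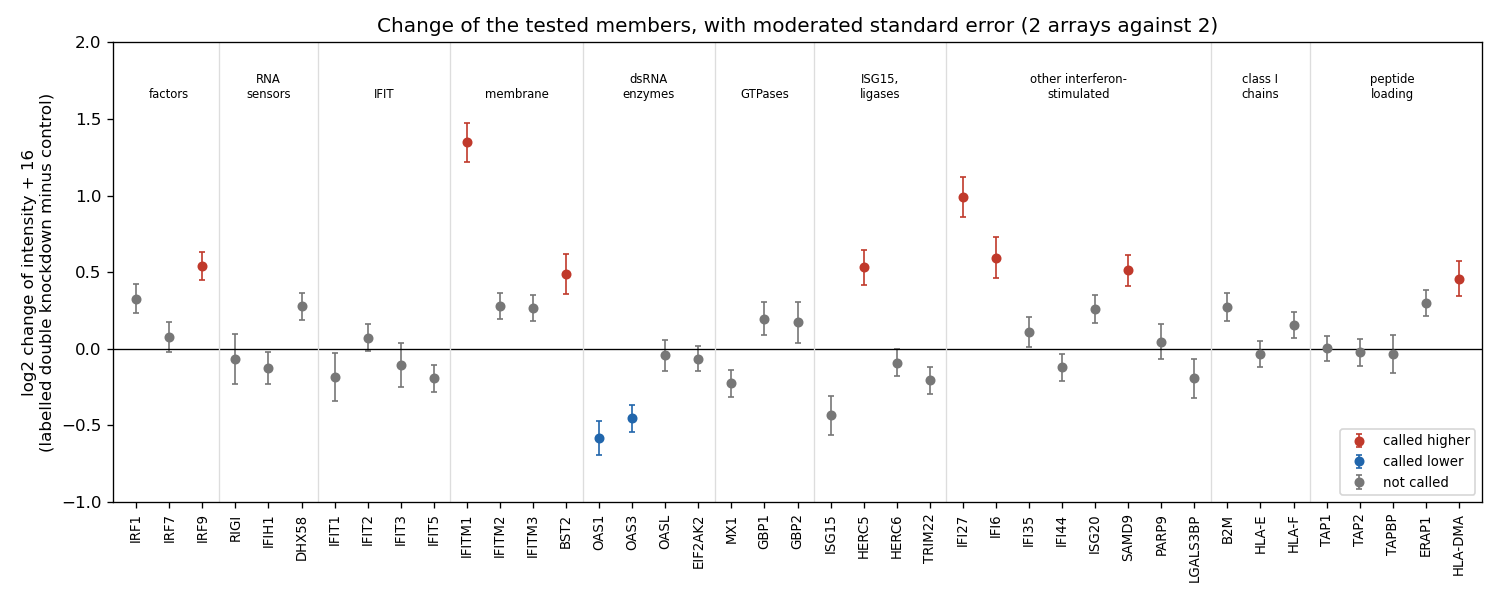
Log2 change of intensity + 16, labelled double knockdown minus control, of the 41 tested members in role classes, with points for the change, bars for the moderated standard error and colours for the call. IFITM1 (1.35) and IFI27 (0.99) stand highest, OAS1 (-0.58) and OAS3 (-0.45) lowest, and most grey points lie within 0.3 of zero.

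ISG15 is a ubiquitin-like protein that is attached to other proteins, and HERC5 is the ligase that attaches it in human cells. HERC5 rose 1.44-fold, from 26.1 and 35.7 to 52.7 and 50.3 (log2 change 0.53 ± 0.11 SE, adjusted p = 0.0187 by limma), and lost its call without labelled double knockdown replicate 1 (0.113) or 2 (0.0966) and without a brightness filter (0.0623), and had 0.28 with a constant of 64 (0.0444). Its labelled double knockdown arrays both lay above the controls. ISG15 itself read 360.2 and 468 on the control arrays and 292 and 306 on the others. Both labelled double knockdown arrays were below both controls, but the change missed the threshold (log2 change -0.44 ± 0.12 SE, adjusted p = 0.052). The log2 change of ISG15 was -0.62 without control replicate 1 and -0.26 without control replicate 2. It was -0.40 and -0.47 without labelled double knockdown replicate 1 and 2. ISG15 passed under 6 of 14 alternatives, among them array median centring (0.0368) and quantile normalization (0.0466). It did not pass with a constant of 4 (0.0747) or 64 (0.0764) or without a brightness filter (0.134). HERC6, the neighbour of HERC5 on chromosome 4, had a log2 change of -0.092 ± 0.088 SE (adjusted p = 0.544). TRIM22, a ubiquitin ligase with antiviral activity, read 693 and 729.9 against 621 and 607 (log2 change -0.21 ± 0.085 SE) and did not pass (adjusted p = 0.146).

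Among the transcription factors, IRF9, the DNA-binding subunit of the complex on response elements, rose. It read 282 and 311 on the control arrays and 428 and 449 on the labelled double knockdown arrays, without overlap. It rose 1.45-fold, with means of 297 ± 20.4 and 438 ± 15.1 (SD, n = 2 each; log2 change 0.54 ± 0.091 SE, adjusted p = 0.00831 by limma). IRF9 had adjusted p = 0.0516 without labelled double knockdown replicate 1 and 0.0835 without replicate 2. IRF1, an early factor of the interferon gamma response, read 181 and 202 against 238 and 251, without overlap. It just missed the threshold (log2 change 0.33 ± 0.093 SE, adjusted p = 0.051). IRF1 passed under 6 alternatives, among them without control replicate 2, but in no other fit with an array left out. Its log2 change was 0.25 and 0.40 without control replicate 1 and 2, and 0.36 and 0.29 without labelled double knockdown replicate 1 and 2. IRF7, which drives type I interferon genes, had a log2 change of 0.076 ± 0.095 SE (adjusted p = 0.655).

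None of the 3 cytoplasmic RNA sensors passed the limma test, and DHX58 alone had an unadjusted p under 0.05 (0.0144). RIGI, which detects viral RNA with free 5′ phosphates, had control values of 174 and 249.5 that spanned its labelled double knockdown values of 178 and 220.4. IFIH1, or MDA5, which detects long double-stranded RNA, read 219 and 265 in control cells against 221 and 219 (log2 change -0.13 ± 0.11 SE, adjusted p = 0.48). DHX58, or LGP2, a regulator of both, read 16.9 and 18.3 against 23.3 and 26.1 (log2 change 0.28 ± 0.088 SE, adjusted p = 0.0723).

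The IFIT proteins, several of which bind viral RNA, are encoded on chromosome 10 and did not pass either. Their log2 changes ran from -0.19 for IFIT5 to 0.072 for IFIT2, and none had an unadjusted p under 0.05 by limma. IFIT3 read 296 and 408 on the control arrays and 307 and 339 on the others, so the control pair enclosed the labelled double knockdown pair (log2 change -0.10 ± 0.14 SE, adjusted p = 0.689). IFIT1 read 63.7 and 98.1 against 66.2 and 69.7, with the same enclosure. Its log2 change was -0.18 over all arrays, -0.44 without control replicate 1, where it passed (adjusted p = 0.0353), and 0.07 without control replicate 2. The sign of IFIT1 and IFIT3 thus depended on which control array was used.

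Of the interferon-induced GTPases, MX1 and MX2, which act against incoming viruses, were dim. MX1 read 17.9 and 19.7 on the control arrays and 14.0 and 13.4, below the brightness minimum, on the others (log2 change -0.23 ± 0.085 SE, adjusted p = 0.114), and MX2, which read 16.6 and 12.6 against 14.3 and 14.2, was not tested. GBP1 and GBP2, guanylate-binding proteins that attack vacuoles of intracellular microbes, had log2 changes of 0.20 ± 0.11 and 0.17 ± 0.13 SE and did not pass. GBP2 read 162 and 218 on the control arrays against 203 and 226, with overlap (adjusted p = 0.447).

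Of the 8 antigen presentation genes, 7 did not pass. B2M, the light chain of MHC class I, read 9819 and 10744 on the control arrays and 12386 and 12434 on the labelled double knockdown arrays. Both of the latter were higher, but the change did not pass (log2 change 0.27 ± 0.089 SE, adjusted p = 0.0787 by limma), and a second probe set of almost the same intensity showed 0.035 (unadjusted p = 0.632). HLA-E and HLA-F, nonclassical class I heavy chains, had log2 changes of -0.034 ± 0.085 and 0.16 ± 0.085 SE, and their probe sets are of a type that can match other HLA genes.

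Among the genes of peptide transport, trimming and loading, 4 of 5 did not pass. TAP1 and TAP2 form the transporter that carries peptides into the endoplasmic reticulum, and TAPBP, or tapasin, bridges it to class I. TAP1 read 310.2 and 307 on the control arrays against 306 and 312, a log2 change of 0.0022 ± 0.083 SE (adjusted p = 0.993). TAP2 and TAPBP had log2 changes of -0.024 ± 0.088 and -0.036 ± 0.12 SE. ERAP1, the aminopeptidase that trims peptides there, read 97.5 and 104 against 129 and 126, without overlap, and narrowly missed the threshold (log2 change 0.30 ± 0.086 SE, adjusted p = 0.0531).

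HLA-DMA, which helps to load MHC class II, was the member of this class that rose. It was dim: the control arrays read 12.0 and 17.4, around the brightness minimum, and the labelled double knockdown arrays 28.9 and 23.3. The change was 1.37-fold (log2 change 0.46 ± 0.12 SE, adjusted p = 0.0346). It did not pass without control replicate 1 (0.113) or either labelled double knockdown array (0.224 and 0.0867), with a constant of 64 (log2 change 0.20, 0.0993) or without a brightness filter (0.0933). With a constant of 4 its log2 change was 0.69 (0.0332). Its only probe set was of a type that can match several transcripts, so no value was left once such probe sets were dropped.

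Other genes of the same pathways were then described from a list of 110, of which 91 were tested. Of these 9 rose and 3 fell, against the 9.41% and 6.60% of all tested genes above, and their median log2 change was 0.029. Over all tested genes quantile normalization gave 1182 higher and 947 lower, and array median centring 1161 and 1090. With either, the split of the pathway list was 8 higher and 5 lower. Without labelled double knockdown replicate 1 it was 5 and 1, and without replicate 2 it was 3 and 1. All 7 interferon ligand genes with a probe set lay below the brightness minimum, with means between 5.61 and 13.4. None of the 10 tested receptors, kinases and STATs passed, and 1 of them, JAK1, had an unadjusted p under 0.05 (0.030) by limma. The receptor chains IFNAR1, IFNAR2, IFNGR1, IFNGR2 and IFNLR1 had log2 changes of 0.029, 0.029, -0.032, 0.080 and -0.081, each within its standard error of zero.

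Among the feedback inhibitors SOCS3, which blocks JAK kinases, rose 1.41-fold, from 29.9 and 28.8 to 44.3 and 51.9 (log2 change 0.50 ± 0.094 SE, adjusted p = 0.0127 by limma). With the mean of its probe sets its log2 change was 0.12 (adjusted p = 0.202), with a constant of 64 it was 0.26 (0.0367), and it lost its call without labelled double knockdown replicate 2 (0.128). CGAS, the sensor of cytosolic DNA, rose 1.65-fold, from 19.5 and 28.8 to 44.5 and 55.5 (log2 change 0.72 ± 0.13 SE, adjusted p = 0.0118). It was the 1 gene of 14 in its group that passed, and it did not pass without labelled double knockdown replicate 2 (0.088) or without a brightness filter (0.0566). Its log2 change was 0.29 with the mean of its probe sets (0.0318) and 0.37 with a constant of 64 (0.0357).

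Of 35 further interferon-stimulated genes tested, 5 rose and 2 fell, where 9.41% of all tested genes rose and 6.60% fell. WARS1, the tryptophanyl-tRNA synthetase, rose 1.61-fold, from 564 and 583 to 889 and 973 (log2 change 0.68 ± 0.090 SE, adjusted p = 0.00297), and its call held with each array left out. SP100, a nuclear body protein named here after its values were seen, had the smallest rise, 1.28-fold (adjusted p = 0.0436 by limma). Whether the call of SP100 held under the alternatives was not examined. The restriction factor TRIM5 rose 1.45-fold, the scramblase PLSCR1 1.44-fold and UBE2L6, the conjugating enzyme for ISG15, 1.42-fold. CXCL10, a chemokine that draws T cells, fell from 81.6 and 108 to 31.9 and 50.4 (1.95-fold, log2 change -0.96 ± 0.17 SE, adjusted p = 0.00974). Its 2 labelled double knockdown arrays were both below the controls, and it did not pass without a brightness filter (0.0602) and had a log2 change of -0.59 with a constant of 64 (0.0289). PML, the scaffold of nuclear bodies, fell 1.38-fold, from 174 and 180.2 to 119 and 129 (log2 change -0.47 ± 0.087 SE, adjusted p = 0.0123), but its log2 change was -0.15 (0.318) once _x_at and _s_at probe sets, a type that may pick up more than 1 transcript, were dropped. TRIM5 lost its call without labelled double knockdown replicate 1 (0.112), and its log2 change was 0.30 in place of 0.54 with the mean of its probe sets (0.0274). PLSCR1 lost it without control replicate 1 (0.0567) or labelled double knockdown replicate 2 (0.141), UBE2L6 without these (0.0613 and 0.152) or replicate 1 of the labelled double knockdown (0.0615) or a brightness filter (0.058), and PML without either labelled double knockdown array (0.114 and 0.0694). With the mean of probe sets PLSCR1, at 0.21 (0.0866), and PML, at -0.21 (0.0554), did not pass either.

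Of 25 further antigen presentation genes tested 2 rose and 1 fell, where 9.41% of all tested genes rose and 6.60% fell. CALR and PDIA3 are chaperones of the endoplasmic reticulum that fold many glycoproteins and also take part in loading class I. CALR rose from 223 and 198 to 488 and 470.0 (2.19-fold, log2 change 1.13 ± 0.093 SE, adjusted p = 0.000339 by limma), and kept its call with each array left out. PDIA3 rose 1.27-fold, from 1153 and 1169 to 1592 and 1381 (adjusted p = 0.0487). RFX5, a factor for MHC class II promoters, fell 1.24-fold, from 156 and 165 to 126 and 126 (adjusted p = 0.0434). Both lost their calls whichever array was left out, with adjusted p up to 0.337 and 0.245.

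**Figure D5:**
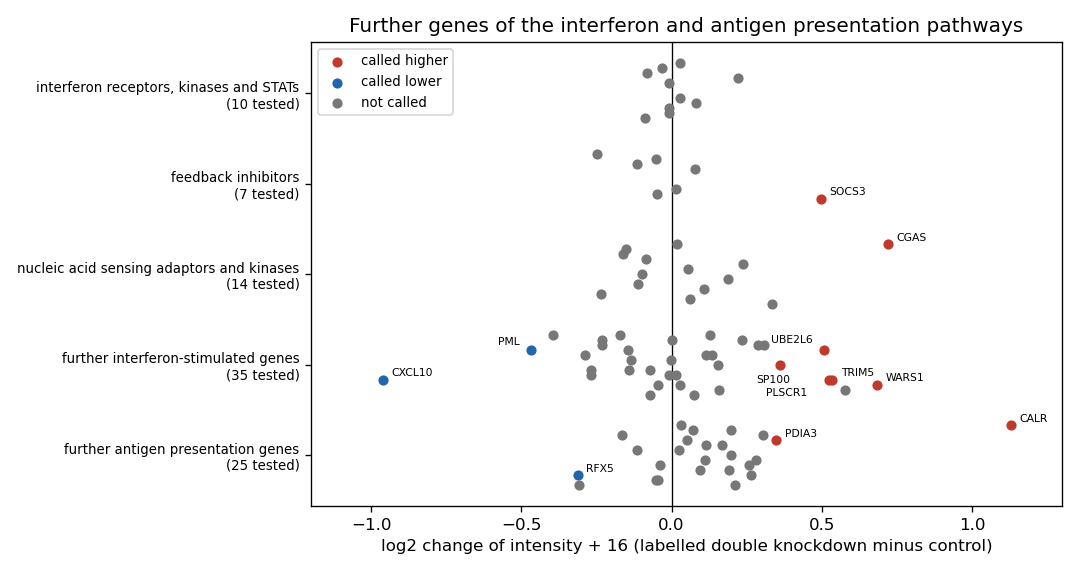
Log2 change of intensity + 16, labelled double knockdown minus control, of the 91 tested genes of the pathway list by subgroup on the y axis, with colours for the call and names on the genes that passed, spread vertically for legibility. CALR (1.13) and CGAS (0.72) lie farthest right and CXCL10 (-0.96) farthest left, and the receptors, kinases and STATs lie near zero.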

How the data were processed

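RNA of MCF10A cells was measured on 4 Affymetrix U133 Plus 2.0 arrays, grouped and numbered by the sample titles. The values the authors deposited are probe set intensities on a linear scale. The sources used here do not state how they were summarised and normalized. Of 54675 probe sets, 41091 named 1 gene in the platform annotation, and 41037 of these were given current symbols through the RefSeq table of GRCh38.p14. The brightest probe set stood for a gene. Values were compared as log2(intensity + 16) by limma (lmFit and eBayes, version 3.58.1, under R 4.3.3), two-sided and without covariates, over all 4 arrays. The number of arrays limits the precision.

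The members and lists were chosen with earlier results of these data known. Each member is named, with its value on every array where it passed or was the brightest of its role class that did not. Of the pathway list, up to 6 genes that passed per subgroup, SP100 in addition to these, and the interferon receptors are named. Of the 41 tested members, 18 were read from probe sets that can match several transcripts. Alternatives changed the constant, the scaling, the probe sets, the brightness filter, the variance prior, the pairing by sample number and the arrays included.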

Additional observations from a re-analysis of the deposited data

How the results depend on the processing

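The 10 members that passed kept their direction in all alternatives that could be run for them, and 2, IFITM1 and IFI27, kept their call. Labelled double knockdown replicate 1 and replicate 2 each took the calls of 8 when left out. With 1 array left out, the counts higher and lower were 378 to 1120 and 158 to 875 of all genes, 2 to 7 and 0 to 4 of the interferon effectors, and 3 to 11 and 1 to 4 of the pathway list, and 0 to 1 antigen presentation genes were higher. CBLB had log2 changes of 0.40 to 0.50, with adjusted p up to 0.132. Antigen presentation genes higher numbered 2 with a constant of 64, cyclic loess, an intensity trend or the replicate block. Without _x_at and _s_at probe sets 4 of them could be tested, HLA-DMA not among them, and 0 were higher. None was higher without a brightness filter. Without that filter 4 of 38 effectors and 5 of 104 pathway genes were higher, where 928 of all 19775 genes were. Pathway genes lower numbered 5 with array median centring, quantile normalization or a mean of at least 4 times the median, and 6 with the replicate block. The sample numbers are not said to pair the arrays (correlation of same-numbered deviations 0.24). The block gave 1423 higher and 1081 lower of all genes. The cause of these shifts was not tested.

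Of the 31 members that did not pass, 8 passed in some alternative and 13 changed sign in some. With array median centring TAP1 was at -0.021. With the mean of probe sets IFI44 was at 0.030, HLA-E 0.018, TAP2 2.54e-05, TAPBP 0.022, IFNGR1 0.0016 and IFNLR1 0.10. HLA-E was at 0.0011 without _x_at and _s_at probe sets and IFNGR1 at 0.0037 with cyclic loess. With 1 array left out, log2 changes ran from -0.025 to 0.37 for GBP2, -0.098 to 0.19 for PARP9, -0.077 to 0.029 for TAP2, -0.22 to 0.14 for TAPBP, -0.099 to 0.16 for IFNAR1, -0.030 to 0.089 for IFNAR2, -0.31 to 0.17 for RIGI, -0.25 to 0.0016 for IFIH1, -0.44 to 0.074 for IFIT1, -0.32 to 0.12 for IFIT3, -0.14 to 0.056 for OASL, -0.010 to 0.015 for TAP1 and -0.013 to 0.16 for IRF7.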

Other observations

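Several members had probe sets other than the one used, all above the brightness minimum unless stated. For ERAP1 the dimmer probe sets had log2 changes of 0.25, 0.074 and 0.0028, with unadjusted p of 0.0109, 0.261 and 0.973. HLA-F had 0.14 on its second probe set (unadjusted p = 0.0267), close to the 0.16 on the first. IRF1 had 0.15 on its second (unadjusted p = 0.040). RIGI had 2 dimmer probe sets, 1 that read 162.7 and 162.7 on the control arrays against 162.4 and 163.1, and 1 with a log2 change of -0.11 (unadjusted p = 0.0532). OAS3 had a second probe set below the brightness minimum with a log2 change of -0.22 (unadjusted p = 0.016), the same direction as the first.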
